A study of Mus musculus with 912 samples.

Results

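The cadherins (Cdh) and the nonclustered protocadherins (Pcdh) were followed here as one gene family in single hippocampal nuclei. Members were all genes whose symbol was Cdh or Pcdh followed directly by a digit, kept if their level was above 1 on the log2(TPM+1) scale in at least 2% of the nuclei with at least 4000 genes above that level. TPM is a share of a nucleus's RNA that is corrected for transcript length, so levels of different genes can be set side by side on this scale. Of 40198 genes with a level, 35 carried such a symbol and 26 were members.

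Cadherins are surface proteins that bind one another between neighbouring cells in the presence of calcium. Classical cadherins carry a cytoplasmic tail that holds catenins and through them the actin cytoskeleton. Type I members such as N-cadherin, the product of Cdh2, make strong junctions and line the synaptic cleft, and type II members pair selectively and mark neuron types and their target layers. Protocadherins bind more weakly, and the delta protocadherins fall into a delta-1 and a delta-2 branch with different tails. In the hippocampus these proteins take part in the outgrowth and targeting of axons, in the growth of dendrites and in the turnover of synapses. Pcdh8, also known as arcadlin, was found as a gene that neuronal activity induces, and its product sits at synapses beside N-cadherin.

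The nuclei came from the hippocampus of wild-type female C57BL6 mice aged 7.75 to 9 weeks, with no transgene, and were profiled by Smart-seq2, which gives whole-transcript libraries from single nuclei. Control mice stayed in the home cage (HC), and the others spent 15 min in a new environment (NE, called A) and were taken 1 h later, or, for dentate gyrus (DG) nuclei only, 4 h or 5 h later. A further set returned to the home cage for 4 hours after A, met A again (A > A) or a different environment C (A > C), and was taken 1 h after that. Antibodies for NEUN, PROX1, CTIP2 and FOS protein were used to sort HC and 1 h nuclei, and those for PROX1, CTIP2, FOS and ARC, with no NEUN stain, to sort all other DG nuclei, which were positive for ARC. FOS− nuclei were thus ARC+ in the re-exposure groups and not selected by ARC in the HC and 1 h groups. The study sorted the 4 h and 5 h nuclei, called ARC+ here, as both ARC+ and FOS−. The question was which transcripts follow recent activity in each cell type and which differ between neurons that do and do not respond to a second exposure.

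In all, 783 of 912 nuclei from 33 mice were used, with 142275 to 5885216 counts each (median 1251690). The unit of comparison was the mouse, and the level of a member in a mouse was its mean log2(TPM+1) over at least 2 nuclei of one group. Mouse numbers were taken as separate mice where the date differed. DG groups of different exposure were prepared on separate dates, apart from a 4 h mouse that shared a date with A > A FOS− mice. Date and exposure thus cannot be told apart there. FOS+ and FOS− DG nuclei shared their date at 1 h and on some dates of A > A, but not in A > C. Both 1 h DG groups came from 1 mouse. HC DG nuclei came mainly from 2 mice, with 18 and 5 nuclei. The HC and 1 h nuclei and the ARC+ nuclei were deposited as separate tables from one pipeline, so each DG level at 4 h and later was set against HC across tables. Nuclei labelled DG held 5 of 5 DG markers above 1 and nuclei labelled VIP, the interneurons with vasoactive intestinal polypeptide, held 5 of 5 VIP markers. CA1 held 4 of 5, CA3 held 4 of 4, thalamus (Th) 3 of 3, Ivy interneurons 3 of 3 and parvalbumin interneurons (Pvalb) 2 of 3 with Tac1 at 0. The 3 subiculum markers averaged 2.42 in nuclei labelled subiculum (Sub) and 1.32 to 2.03 elsewhere, so that label rests on few genes here. The summed level of the 5 DG markers was 25.3 to 28.0 in HC mice and 26.5 in 1 h FOS− DG nuclei, against 11.9 to 22.4 in the later groups and 16.6 in 1 h FOS+ nuclei.

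The members are spread over 11 chromosomes of the mouse genome (GRCm38, GENCODE vM21 gene models). Chromosome 14 carries 5 of them, including Pcdh8, Pcdh17, Pcdh20 and Pcdh9, and chromosome 15 carries a further 5, Cdh6, Cdh9, Cdh10, Cdh12 and Cdh18. Pcdh8 spans 4.5 kb and Pcdh20 6.7 kb, against 95.4 kb for Pcdh17 and 877.3 kb for Pcdh9. The 250 bases before the annotated start of these 4 neighbours are shown because Pcdh8 was the only member called by edgeR in any comparison and the other 3 lie on the same chromosome. Each is written 5′ to 3′ on the strand of the gene (GRCm38.p6 with RefSeq starts). Capitals mark TATAAA, the TATA box letters, and TGACG on the other strand, which reads CGTCA as printed.
Pcdh8, chr14:79771313-79771562, minus strand: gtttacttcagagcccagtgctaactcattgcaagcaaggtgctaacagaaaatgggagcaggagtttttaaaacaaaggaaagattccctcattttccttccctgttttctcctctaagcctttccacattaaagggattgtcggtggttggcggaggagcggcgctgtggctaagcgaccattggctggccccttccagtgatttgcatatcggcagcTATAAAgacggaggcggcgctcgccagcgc
Pcdh17, chr14:84443313-84443562, plus strand: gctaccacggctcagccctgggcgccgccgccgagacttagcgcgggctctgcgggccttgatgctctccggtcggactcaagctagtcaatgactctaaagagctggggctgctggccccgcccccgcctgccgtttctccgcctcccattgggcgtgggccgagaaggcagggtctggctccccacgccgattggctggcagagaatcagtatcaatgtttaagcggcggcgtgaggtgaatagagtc
Pcdh20, chr14:88471397-88471646, minus strand: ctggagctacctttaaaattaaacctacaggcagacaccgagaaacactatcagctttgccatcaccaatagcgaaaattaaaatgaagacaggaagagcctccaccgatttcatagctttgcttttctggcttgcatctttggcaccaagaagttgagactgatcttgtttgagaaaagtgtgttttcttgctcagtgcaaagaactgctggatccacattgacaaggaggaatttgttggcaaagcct
Pcdh9, chr14:93890680-93890929, minus strand: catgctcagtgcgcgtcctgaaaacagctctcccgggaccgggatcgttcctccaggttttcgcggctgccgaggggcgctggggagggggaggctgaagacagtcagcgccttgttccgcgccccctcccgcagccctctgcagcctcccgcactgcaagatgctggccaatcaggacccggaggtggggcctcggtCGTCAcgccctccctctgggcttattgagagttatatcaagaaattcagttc

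The Pcdh8 window holds TATAAA at 30 to 25 bases before the start, and the Pcdh9 window holds TGACG at 52 to 48 bases before it. The windows of Pcdh17 and Pcdh20 hold neither. GC content was 51.2% for Pcdh8, 64.8% for Pcdh17, 42.4% for Pcdh20 and 63.6% for Pcdh9. Both strands of 32851 such windows were searched, and 19 of the 26 members had one. TATAAA was found in 12.4% of all windows and in those of 2 members, Pcdh8 and Pcdh15. TGACG, the core of the cyclic AMP response element, was found in 17.8% of all windows and in those of 3 members, Cdh8, Pcdh10 and Pcdh9. The whole element TGACGTCA, which contains that core, was in 1.55% of windows, and the AP-1 letters TGANTCA, which FOS-JUN dimers bind, were in 6.75%. Neither of those was in the window of a member. Each match is a run of letters in this window only.

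Members ranged from nearly all nuclei to the 2% limit. Cdh17 was above 1 in 94.9% of the nuclei, Cdh2 in 78.8%, Pcdh17 in 78.0%, Pcdh9 in 72.9%, Pcdh8 in 71.1%, Pcdh10 in 64.7% and Cdh9 in 61.1%. At the other end Cdh23 was above 1 in 3.05%, Cdh22 in 2.81% and Cdh6 in 2.69%, just inside the limit. Pcdh18 at 1.95% was just outside it, followed by Cdh15 at 1.22% and Cdh26 at 1.10%. E-cadherin (Cdh1) reached 0.733%, and Cdh3, Cdh5 and Cdh16 were above 1 in no nucleus. Cdh17, liver-intestine cadherin, was the evenest of the well-detected members: over 65 sums of one mouse and group its level was 3.45 ± 0.55 (SD) and lay between 2.01 and 4.49. It was read from few counts, with a median of 25 per nucleus and at most 242. Pcdh8 was at the other extreme of spread, at 3.81 ± 3.17 over the same 65 sums.

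Each cell type held its own mix of members, described here from FOS− nuclei of HC and 1 h mice. The labels of cell type were made from all genes of these nuclei, so these levels carry no test. Sums per mouse numbered 6 for CA1 and VIP, 5 for Sub, 3 for DG, CA3 and Ivy, and 1 for Pvalb and Th. Levels of at least 1 were held by 14 members in DG, 16 in CA1, 17 in CA3, 19 in Sub, 16 in VIP, 13 in Ivy, 13 in Pvalb and 17 in Th. Pcdh9, a delta-1 protocadherin, was the highest member in all types except VIP, where Cdh10 led. After it came Cdh8 and Cdh13 in DG, Cdh2 and Cdh17 in CA1, Cdh8 and Cdh9 in CA3, Cdh8 and Cdh2 in Sub, Cdh2 and Pcdh19 in Ivy, Cdh13 and Pcdh10 in Pvalb and Cdh2 and Cdh12 in Th.

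**Figure D1:**
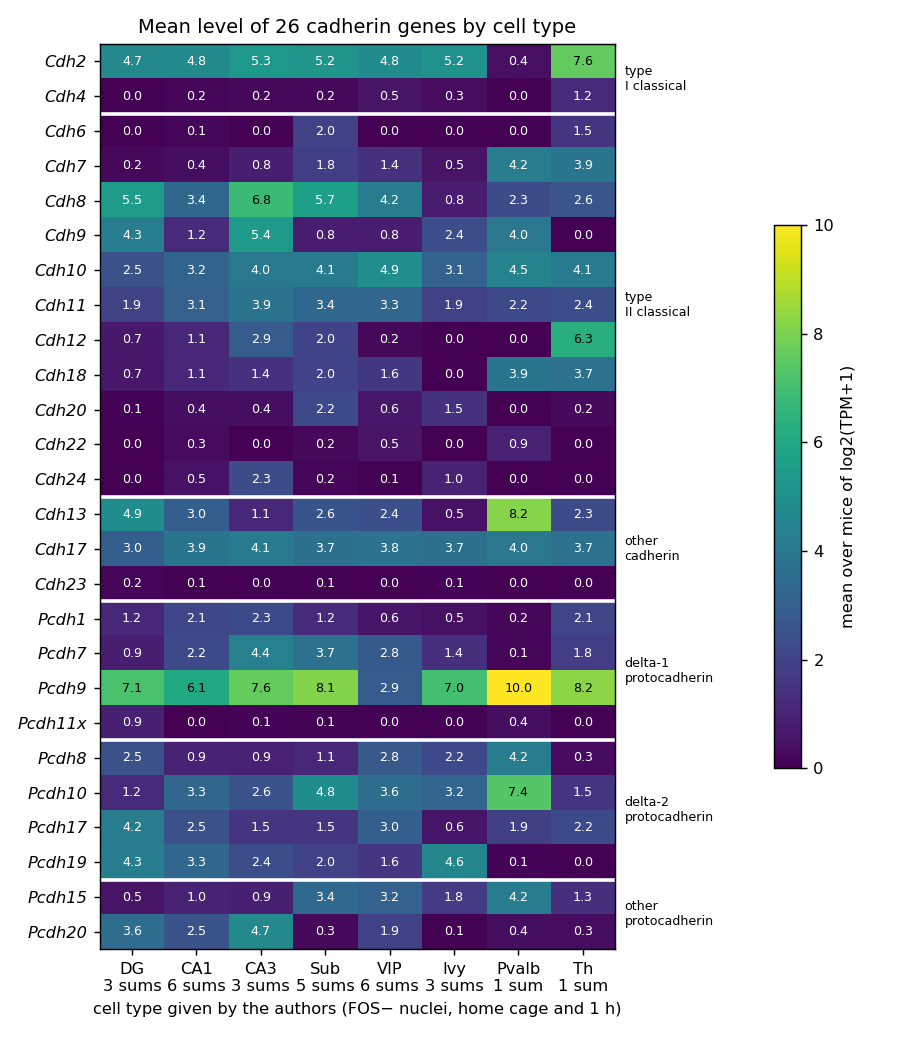
Mean log2(TPM+1) over mice of the 26 members (rows, grouped by subfamily) in FOS− nuclei of 8 cell types (columns, with the number of sums of one mouse and exposure). Pcdh9 runs from 2.87 in VIP to 10.00 in Pvalb, while Cdh17 stays between 2.99 and 4.12.

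Among the type I classical cadherins, Cdh2 stood near 5 in most types, with 4.70 ± 0.24 (SD) in DG, 4.76 ± 1.29 in CA1 and 4.82 in VIP. It was highest in Th at 7.58 and lowest in Pvalb at 0.39, each from 1 mouse. Cdh4, R-cadherin, did not pass 1 except in Th, at 1.19. The type II cadherins were more uneven. Cdh8 stood at 6.81 ± 2.00 in CA3, 5.65 ± 1.19 in Sub and 5.53 ± 0.54 in DG, against 3.36 ± 0.98 in CA1 and 0.75 ± 0.75 in Ivy. Cdh9, which takes part in the DG to CA3 mossy fibre synapse, stood at 5.38 ± 1.02 in CA3 and 4.28 ± 0.65 in DG, against 2.41 ± 2.82 in Ivy, 1.25 ± 1.59 in CA1 and 0.76 ± 1.39 in VIP. The 3 Ivy mice ran from 0.00 to 5.51 and overlapped DG. Cdh10 was the type II member with the highest level in VIP, 4.92 ± 2.03, and the lowest in DG, 2.46 ± 1.01, and Cdh11 likewise was lowest in DG, at 1.92 ± 0.79. Cdh6 was above 1 in Sub (1.97 ± 1.12) and Th (1.49) and Cdh20 in Sub (2.19 ± 0.99) and Ivy (1.47 ± 0.66). Cdh12 and Cdh18 were high in Th, at 6.32 and 3.72, and Cdh24 was highest in CA3 at 2.33 ± 2.15. Cdh22 stayed under 1 in all 8 types.

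Of the other cadherins, Cdh13 (T-cadherin, which has no transmembrane part and is anchored by a lipid) stood at 8.20 in Pvalb and 4.86 ± 0.51 in DG, against 0.47 in Ivy and 1.11 in CA3. Cdh23, known from the tip links of hair cells, reached no more than 0.17. Among the delta-1 protocadherins, Pcdh9 had a lower mean in VIP (2.87 ± 2.20) than in CA1 (6.08 ± 0.70) and in CA1 than in Ivy (7.03 ± 0.93). Mice of both pairs overlapped. Pcdh7 was highest in CA3 at 4.37 ± 1.54. Pcdh11x reached its highest level in DG, 0.88 ± 0.74, and was at 0 in CA1, VIP, Ivy and Th. The delta-2 protocadherins differed in where they stood. Pcdh10, a protein that recruits actin regulators, was lowest in DG at 1.21 ± 0.15 and reached 4.85 ± 0.96 in Sub and 7.35 in Pvalb. Pcdh17 was highest in DG at 4.24 ± 1.19, and Pcdh19, the gene of a female-limited epilepsy, stood at 4.27 ± 0.34 in DG and 4.61 ± 3.13 in Ivy. Pcdh8 in these FOS− nuclei stood at 0.94 in CA1, 0.91 ± 0.13 in CA3, 1.12 ± 1.12 in Sub and 0.29 in Th. It stood at 2.49 ± 0.38 in DG, 2.20 ± 0.96 in Ivy and 2.80 ± 1.32 in VIP, and was highest in Pvalb at 4.19, from 1 mouse. Pcdh20 was highest in CA3 at 4.69 ± 1.26 with DG at 3.56 ± 1.45, and Pcdh15, a tip-link partner of Cdh23, was high in Sub (3.43 ± 0.79) and VIP (3.15 ± 0.87) and low in DG (0.51 ± 0.22). With the 6 types of at least 3 sums put in order for each member, 9 of 130 steps between neighbouring types were larger than the larger of their SDs, so most neighbours in these orders did not differ beyond their spread.

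Sort gates, which use antibodies and not transcripts, gave a test of the cell type differences in FOS− nuclei: PROX1+CTIP2+ for DG (3 mice), PROX1−CTIP2+ for CA1 (2 mice) and PROX1+CTIP2− for VIP (4 mice). Gates were sorted on different dates, and both CA1 mice came from 1 date, so gate and date cannot be told apart. By the labels of cell type, the DG gate held DG nuclei only (50), the CA1 gate 25 CA1 nuclei of 31 and the VIP gate 34 VIP nuclei of 49, with 7 Ivy and 6 Th. In 1 VIP mouse 6 of 13 nuclei were labelled VIP and 5 Th. Cdh9 stood at 3.53, 4.58 and 4.72 in the DG mice, 0.00 and 0.16 in the CA1 mice and 0.00, 0.40, 0.61 and 1.02 in the VIP mice. The lowest DG mouse was thus above the 6 mice of the other gates. By label, however, the 6 mice with nuclei labelled CA1 ran from 0.00 to 3.85 and overlapped DG. Of these, the CA1 gate mice were at 0.00. The 2 mice sorted as PROX1−CTIP2− on another date, a gate outside this test, were at 2.32 and 3.85. Cdh13 stood at 4.28, 5.09 and 5.22 in DG, 0.56 and 1.27 in CA1 and 1.63, 2.46, 3.45 and 3.63 in VIP. Again DG and the other gates did not overlap, while in nuclei labelled CA1 it ran from 0.60 to 4.95 and overlapped DG. By label it was at 0.60 and 0.79 in the CA1 gate mice and 4.66 and 4.95 in those 2 PROX1−CTIP2− mice. Pcdh10 ran the other way, at 1.03, 1.26 and 1.32 in DG, 2.83 and 3.31 in CA1 and 3.07, 4.16, 4.75 and 5.24 in VIP. Here the DG mice were the lowest and CA1 and VIP overlapped, but nuclei labelled VIP ran from 0.85 to 5.15. Cdh8 was at 5.10, 5.37 and 6.13 in DG, 4.27 and 4.69 in CA1 and 0.00, 2.32, 2.89 and 3.03 in VIP. These 3 ranges did not overlap, but nuclei labelled VIP ran from 0.00 to 9.73. With so few mice, ranges can lie apart without a difference. The share of all genes with ranges apart in this way was not counted, here or in the groups below.

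**Figure D2:**
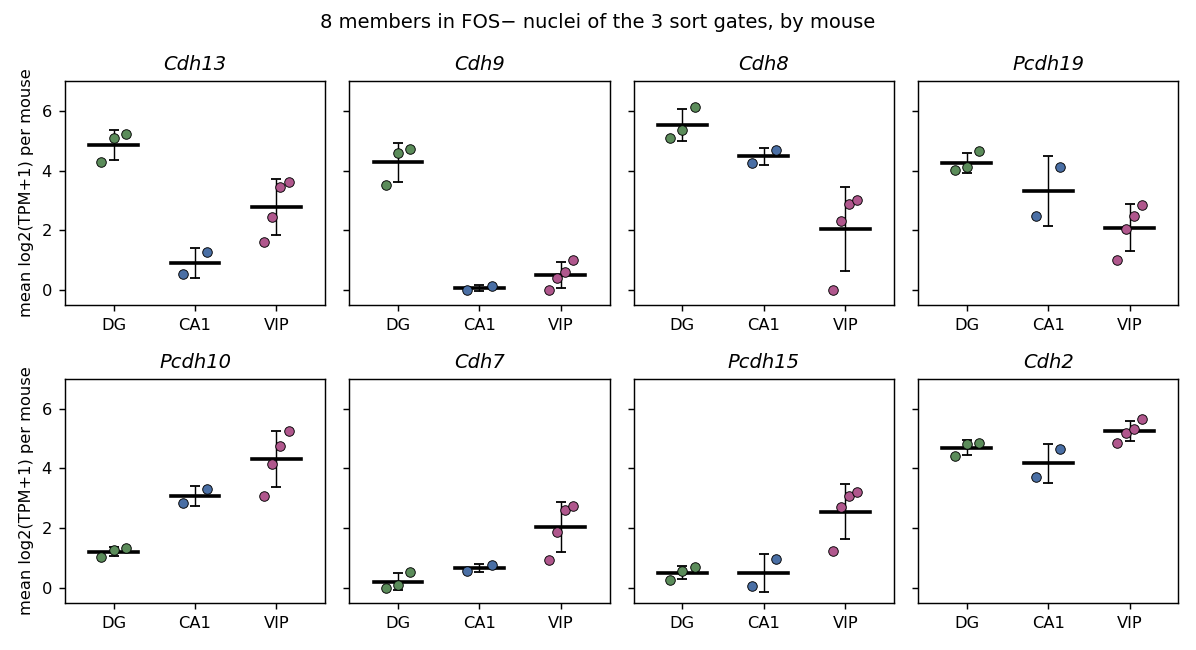
Mean log2(TPM+1) per mouse of 8 members in FOS− nuclei of the DG, CA1 and VIP sort gates. Points are mice, lines the mean and bars the SD. Cdh13 and Cdh9 sit higher and Pcdh10 lower in all 3 DG mice than in the mice of the other gates.

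Cdh7 and Pcdh15 had their highest levels of the 3 gates in the VIP gate. Cdh7 was at 0.94, 1.88, 2.61 and 2.73 in VIP, 0.56 and 0.76 in CA1 and 0.00, 0.09 and 0.55 in DG, and Pcdh15 was at 1.23 to 3.22 in VIP, 0.06 and 0.95 in CA1 and 0.26, 0.56 and 0.70 in DG. The VIP mice lay above both other gates for these 2 genes. By label they overlapped: Cdh7 ran from 0.00 to 2.87 in VIP and to 0.96 in CA1, and Pcdh15 from 1.97 to 4.34 in VIP and from 0.00 to 2.40 in CA1. Cdh7 stood at 3.88 in Th nuclei, which made up part of the VIP gate, and their part in the result was not tested. Cdh4 was at 0 in the 3 DG mice and at 0.23 to 1.09 in VIP. Pcdh11x showed the reverse, at 0.26, 0.69 and 1.69 in DG and 0 in all CA1 and VIP mice. Cdh22 was above 0 in the 2 CA1 mice only (0.43 and 0.57), and Cdh24 was at 0.46 and 0.67 in CA1, at 0 in DG and above 0 in 1 of 4 VIP mice (0.70). Cdh6 was at 0 in DG and at 0.27 and 1.03 in CA1. Cdh2 overlapped between DG (4.43 to 4.85) and CA1 (3.71 and 4.64), with VIP at 4.87 to 5.64.

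The edgeR quasi-likelihood test on counts summed per mouse called none of these differences at an adjusted p of 0.05. For DG against CA1 it called 0 of 26 members and 0.00981% of the 20394 genes tested. Members at an unadjusted p under 0.05 numbered 7, beside 5.96% of all genes, and DESeq2 called 7 (background 6.71%). limma, which was run on the mean levels per mouse, called 2, Cdh13 and Cdh9 (background 1.08%). Pcdh10 was lower in DG by a log2 fold change of -3.56 ± 0.69 (SE, adjusted p = 0.379), and Cdh13 was higher by 4.86 ± 1.5 (adjusted p = 0.792), which became 1.07 (adjusted p = 0.93) with the labels of cell type in place of the gates. For VIP against CA1 edgeR called 0 members (background 0%), with 2 at an unadjusted p under 0.05, beside 6.43% of all genes. DESeq2 called 1, Cdh13 (background 6.53%), and limma 0 (background 1.58%). The log2 fold change of Cdh13 was 3.90 ± 1.47 (SE, adjusted p = 0.758), but by label it was -0.17. Labels also took in nuclei of the PROX1−CTIP2− gate, so the fits by label and by gate differ in sort and date. For DG against VIP edgeR called 0 members (background 0.191%), with 6 at an unadjusted p under 0.05, beside 11.1% of all genes. DESeq2 called 6 (background 11.1%) and limma 3, Cdh8, Cdh9 and Pcdh10 (background 4.55%). Pcdh10 was nearest the threshold, at -4.28 ± 0.68 (SE, adjusted p = 0.0849), and passed it in edgeR without the exposure term (adjusted p = 0.030). Cdh10 was at -2.24 ± 0.73 (adjusted p = 0.357).

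Pcdh8 was the member that edgeR called as higher after exposure in DG nuclei, with calls that rested on 1 of the 2 HC mice. Its level was 2.13 and 2.46 in the HC mice and 2.88 in 1 h FOS− nuclei, against 9.16 in 1 h FOS+ nuclei of the same mouse. It was 7.64 and 8.13 in ARC+ nuclei at 4 h and 3.56, 6.56, 6.70 and 6.74 at 5 h. All mice after exposure whose nuclei were selected for FOS or ARC lay above the HC mice, though 1 of the 5 h mice, with 6 nuclei, lay much closer to them than the other 3. The level of Arc itself was 0.28 and 0.37 in HC, 9.75 in 1 h FOS+ nuclei, 8.68 and 8.91 at 4 h and 3.48 to 6.86 at 5 h, and that 5 h mouse was the lowest for it.

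**Figure D3:**
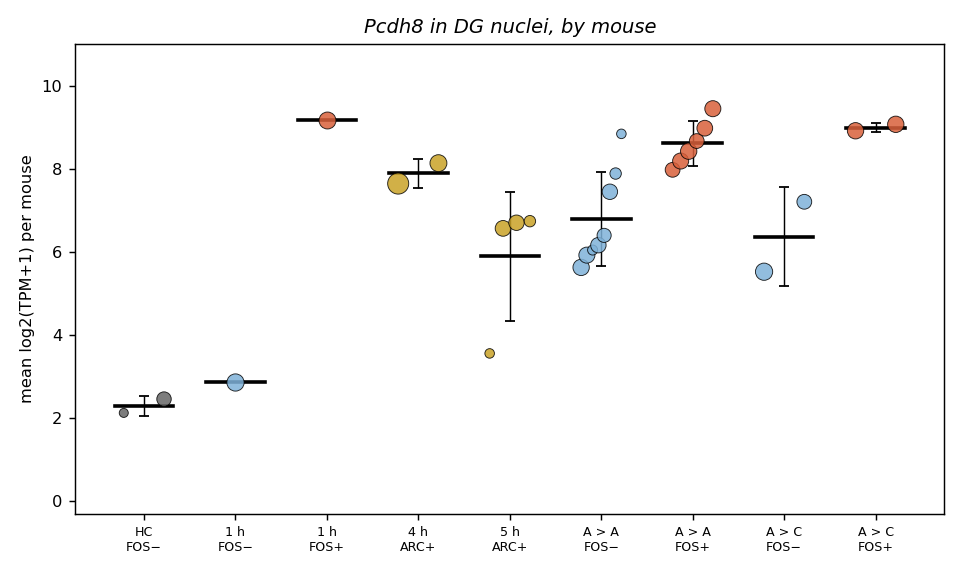
Mean log2(TPM+1) of Pcdh8 per mouse in DG nuclei of 9 groups. Points are mice with area by number of nuclei, lines are means and bars the SD. The 3 HC and 1 h FOS− points lie between 2.13 and 2.88 and the A > A FOS+ mice between 7.97 and 9.44.

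Against HC, the log2 fold change of Pcdh8 was 5.80 ± 0.80 (SE) in 1 h FOS+ nuclei (adjusted p = 0.0011), 4.82 ± 0.72 at 4 h (adjusted p = 0.00238) and 3.99 ± 0.67 at 5 h (adjusted p = 0.0102). These 3 were the only calls of a member in 24 edgeR comparisons, and they share the HC mice. The background was 0.177% of 24291 genes at 1 h, 0.169% at 4 h and 0.148% at 5 h, with 1 of 26 members called in each. Without the HC mouse of 5 nuclei all 3 calls were lost, at 5.33 (adjusted p = 0.0843), 4.36 (0.202) and 3.54 (0.3). Without the other HC mouse they held, and Cdh9 was called beside Pcdh8. Within the 1 h mouse, Pcdh8 was higher in FOS+ than in FOS− nuclei by 5.14 ± 1.04 (SE, adjusted p = 0.127). That comparison had 0 members called by edgeR (background 0.0206%), with 1 at an unadjusted p under 0.05, beside 2.08% of all genes. DESeq2 called Pcdh8 (adjusted p = 4.08e-05, background 4.77%) and so did limma (adjusted p = 0.0315, background 0.405%).

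Shares of nuclei with a count for Pcdh8 came from the same nuclei as the mean levels, so they are a description and not a separate test. Both 1 h DG groups came from 1 mouse, so their nuclei are not replicates of the exposure. A count for Pcdh8 was found in 64.0% of HC DG nuclei and 92.6% of 1 h FOS− nuclei, and in 100% of 1 h FOS+ nuclei. With each nucleus thinned to 100000 counts these shares were 36.0%, 40.7% and 100%. At 4 h and 5 h the thinned shares were 92.6% and 86.4%. In CA1, for comparison, they were 26.3% in HC and 33.3% in 1 h FOS+ nuclei, and in VIP 45.5% and 37.0%. Before thinning, the share was 100% at 4 h and 93.2% at 5 h in DG, 31.6% and 51.5% in CA1 and 45.5% and 48.1% in VIP. Median depth was 979780 counts in HC DG nuclei, 1462217 in 1 h FOS+, 2469299 at 4 h and 426841 at 5 h. Reads are not stranded, so those from Gm9748, an antisense gene whose exons overlap Pcdh8, cannot be told apart from its own.

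Pcdh8 at 4 h was lower by a log2 fold change of -0.98 ± 0.73 (SE) than in 1 h FOS+ nuclei, and at 5 h by -1.81 ± 0.62, neither called by edgeR. The 4 h and 5 h nuclei were sorted as FOS−, so time and FOS state cannot be told apart here. For 4 h against 1 h FOS+ edgeR called 0 members (background 0.0124%), with 1 at an unadjusted p under 0.05, beside 2.39% of all genes. DESeq2 called 0 (background 5.66%) and limma 0 (background 0.176%). For 5 h edgeR called 0 (background 0.0329%), with 2 at an unadjusted p under 0.05, beside 4.69% of all genes. DESeq2 called 1, Cdh24 (background 7.16%), and limma 1, Pcdh19 (background 1.02%). Cdh8 at 5 h against 1 h FOS+ was at -2.93 ± 1.49 and Pcdh10 at -2.10 ± 1.09, both short of the threshold.

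Cdh9 was higher than in HC in 1 h FOS+ nuclei and in most 4 h and 5 h mice, but edgeR did not call it with both HC mice in the fit. It stood at 3.53 and 4.72 in HC, 4.58 in 1 h FOS−, 5.90 in 1 h FOS+, 6.00 and 6.40 at 4 h and 4.44, 5.76, 6.33 and 6.47 at 5 h. Both HC mice lay below the 1 h FOS+ level and below all 4 h and 5 h mice but 1, the 5 h mouse with 6 nuclei. The 1 h FOS− level lay between the HC mice, and A > A FOS+ nuclei, described below, overlapped HC. The log2 fold change against HC was 2.32 ± 0.59 (SE, adjusted p = 0.224) at 1 h FOS+, 2.02 ± 0.52 (adjusted p = 0.235) at 4 h and 1.84 ± 0.48 (adjusted p = 0.194) at 5 h. Without the larger HC mouse edgeR called all 3, at 3.41 (adjusted p = 0.0282), 3.12 (0.0296) and 2.94 (0.0344). DESeq2 called Cdh9 and Pcdh8 at 1 h FOS+ (2 members, background 8.42%), and these with Cdh24, which was near 0 in HC, at 4 h (3 members, background 4.54%) and 5 h (3 members, background 9.17%). Exons of the antisense gene Gm49127 overlap those of Cdh9.

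Several members that were high in resting DG nuclei were lower in the ARC+ groups. Pcdh19 stood at 4.03 and 4.66 in HC, 4.12 in 1 h FOS− and 3.68 in 1 h FOS+ nuclei, and at 0.70 and 0.99 at 4 h and 0.00, 0.94, 1.04 and 1.27 at 5 h. Cdh8 stood at 5.37 and 6.13 in HC, 5.10 and 5.39 in the 1 h groups, 1.75 and 2.78 at 4 h and 0.30, 1.90, 2.27 and 2.67 at 5 h. For both genes, the 1 h FOS+ nuclei were still near HC and no 4 h or 5 h mouse overlapped HC, a separation not counted over all genes. Cdh13 differed in that it was already low in 1 h FOS+ nuclei, at 2.03 against 4.28 and 5.22 in HC and 5.09 in 1 h FOS−, with 0.86 and 2.90 at 4 h and 1.57 to 3.84 at 5 h. Pcdh9 was at 5.85 and 7.88 in HC, 4.13 and 5.34 at 4 h and 2.66, 3.99, 4.46 and 6.45 at 5 h, where it overlapped HC. limma called 4 of the 17 members it tested at 4 h (background 2.71%). These were Pcdh8 as higher and Pcdh19 (adjusted p = 0.00244), Cdh13 (0.0303) and Cdh8 (0.0461) as lower. At 5 h it called 5 of 17 (background 8.42%), these and Pcdh9. Adjusted p was 2.27e-04 for Pcdh19, 0.00385 for Cdh8, 0.0397 for Cdh13 and 0.0497 for Pcdh9. Most genes that limma called were lower than in HC: only 92 of 307 were higher at 4 h and 107 of 955 at 5 h. The median log2 fold change in limma over all genes was -0.12 at 4 h and -0.27 at 5 h. In 1 h FOS+ nuclei limma called 1, Pcdh8 (background 2.42%). edgeR, which weighs nuclei by their counts, called none of the decreases in these members (log2 fold change of Cdh8 at 5 h -2.64 ± 1.28). The DG markers summed to 15.9 to 17.8 at 4 h and 11.9 to 17.9 at 5 h, lower than the 25.3 and 28.0 of the HC mice, and dates differed. The part of either in the lower levels was not tested.

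The ranges of Pcdh17 and Cdh2 overlapped HC at 4 h and 5 h. Pcdh17 stood at 4.64 and 5.19 in HC, 5.23 in 1 h FOS+, 3.61 and 4.86 at 4 h and 3.32 to 4.71 at 5 h, and Cdh2 at 4.43 and 4.82, 4.38, 4.75 and 5.58, and 0.89 to 6.53 in the same groups. Pcdh20 was an exception at 4 h, with 1.91 and 4.14 in HC, 5.18 and 5.94 at 4 h and 2.5 to 5.82 at 5 h. Pcdh10 stayed between 0.69 and 1.85 in all of them on the mean scale, although its log2 fold change in summed counts was 2.81 ± 1.30 at 1 h FOS+ and 2.04 ± 1.14 at 4 h. For FOS− nuclei 1 h after exposure against HC, edgeR called 0 members (background 0%, 0 at an unadjusted p under 0.05), DESeq2 0 (background 2.85%) and limma 0 (background 0.0352%). The median log2 fold change of the members against HC was 0.02 at 1 h FOS+, 0.14 at 4 h and 0.13 at 5 h, beside 0, 0.21 and 0.01 over all genes.

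**Figure D4:**
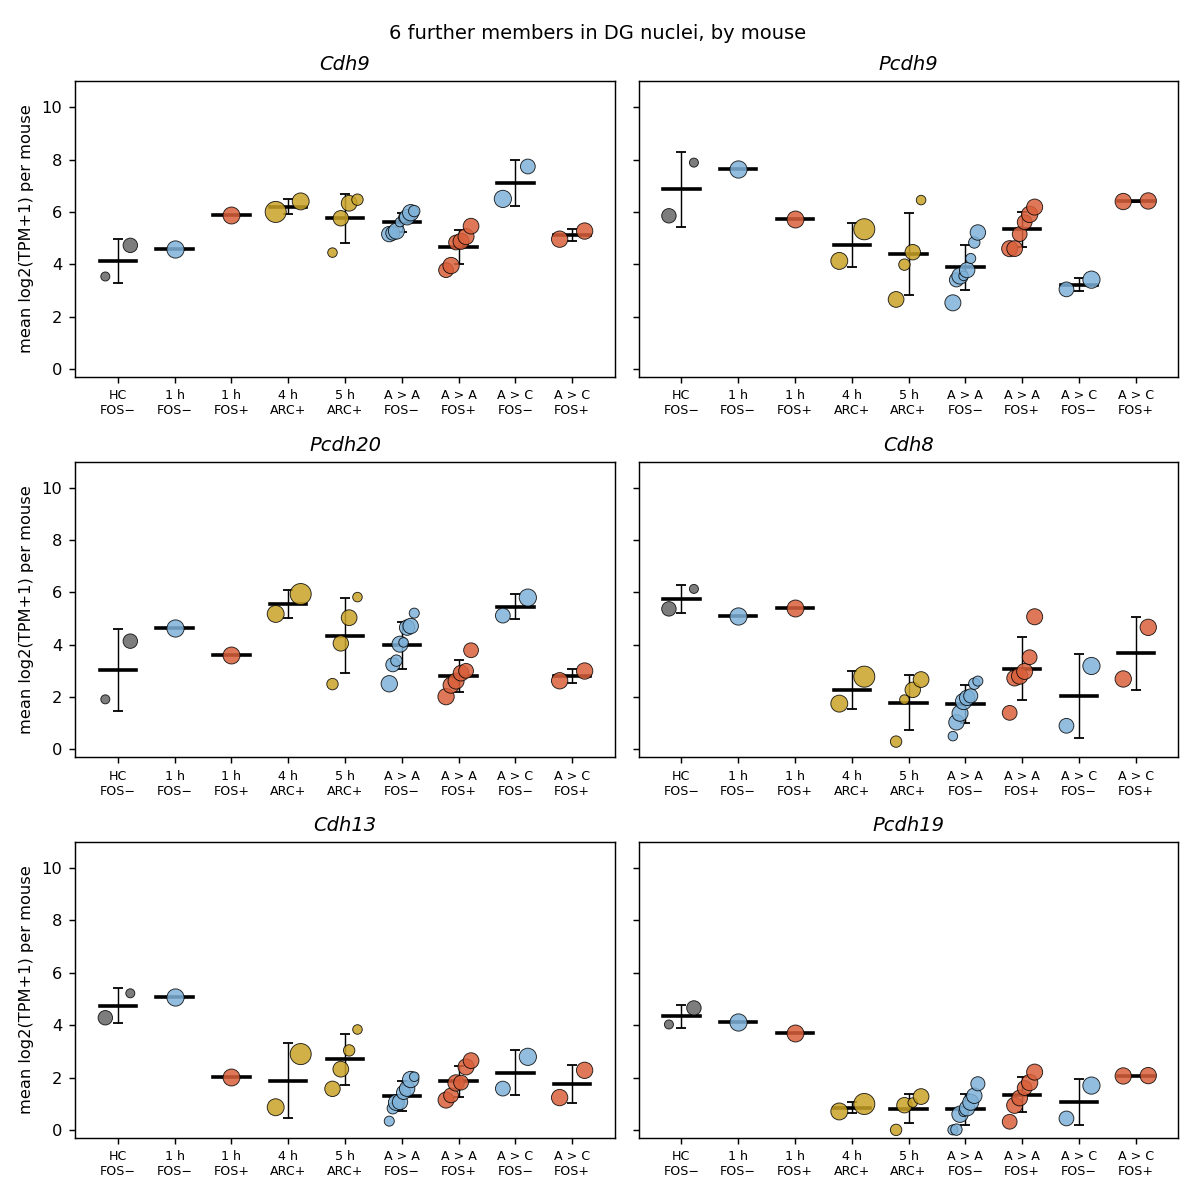
Mean log2(TPM+1) per mouse of 6 further members in the same 9 DG groups, drawn as for Pcdh8. Cdh8 and Pcdh19 are high in HC and both 1 h groups and lower in the ARC+ groups, while Cdh9 lies at 3.53 and 4.72 in HC and above 5 in most later mice.

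After a second exposure, FOS+ and FOS− nuclei were compared among DG neurons that all carried ARC protein. In A > A, Pcdh8 in FOS+ nuclei stood at 7.97, 8.18, 8.42, 8.66, 8.97 and 9.44 over 6 mice, and in FOS− nuclei it ran from 5.63 to 8.84 over 8 mice (median 6.28). FOS− nuclei overlapped the FOS+ mice at their top only, with 1 mouse, of 6 nuclei, above 7.97. Pcdh1 in FOS+ nuclei was at 1.12, 1.26, 1.43, 1.59, 2.46 and 3.02, above all 8 FOS− mice, which ran from 0.03 to 0.73 (median 0.39). Such separated ranges were not counted over all genes. Pcdh9 was at 4.60 to 6.18 in FOS+ (median 5.38) and 2.53 to 5.21 in FOS− nuclei (median 3.67). Cdh9 and Pcdh20 leaned the other way: Cdh9 was at 3.78 to 5.46 in FOS+ (median 4.85) and 5.15 to 6.03 in FOS− (median 5.70), and Pcdh20 at 2.02 to 3.79 (median 2.76) and 2.51 to 5.21 (median 4.05). Cdh8 ran from 1.40 to 5.07 in FOS+ and from 0.51 to 2.61 in FOS− nuclei.

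edgeR called 0 members in A > A (background 0.0741%). At an unadjusted p under 0.05 were 9 members, beside 17.5% of all genes. DESeq2 called 1, Pcdh1 (background 4.68%), and limma 2, Pcdh1 (adjusted p = 0.00652) and Pcdh8 (adjusted p = 0.0451), with a background of 3.71%. For Pcdh9 the log2 fold change was 0.97 ± 0.33 (SE, adjusted p = 0.193) and was 1.63 (adjusted p = 0.476) on the 2 dates that held both kinds of nuclei. In those 4 mice Pcdh8 and Pcdh1 were higher in FOS+ nuclei of each one. The members' median log2 fold change was 0.68 against -0.02 for all genes.

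In A > C the same direction was seen for Pcdh8, at 8.91 and 9.07 in FOS+ and 5.52 and 7.20 in FOS− nuclei, and for Pcdh9, at 6.40 and 6.42 against 3.04 and 3.41. Pcdh1 was at 2.27 and 2.76 against 0.56 and 1.21, and Cdh9 at 4.96 and 5.27 against 6.50 and 7.73. Cdh2 was at 4.16 and 4.64 in FOS+ and 6.78 and 7.66 in FOS− nuclei. None of these 5 pairs of ranges overlapped, but with 2 mice on each side that can often happen without a difference. How many of all genes had such ranges was not counted. FOS+ and FOS− nuclei came from 2 mice each of separate dates, so date and FOS state cannot be told apart. edgeR called 0 members (background 0%), with 2 at an unadjusted p under 0.05, beside 3.63% of all genes. DESeq2 called 1, Pcdh9 (background 5.13%), and limma 0 (background 0.52%). The log2 fold change was 2.44 ± 0.65 (SE, adjusted p = 0.988) for Pcdh9 and 1.90 ± 0.64 for Pcdh8. For Cdh9 it was -0.58 ± 0.51, and 0.06 without 1 of the FOS− mice. Between FOS+ nuclei after A > A and after A > C, edgeR called 0 members (background 0%). At an unadjusted p under 0.05 was 1 member, beside 4.46% of all genes. DESeq2 called 0 (background 4.5%) and limma 0 (background 0%). Pcdh8 was at 7.97 to 9.44 and 8.91 to 9.07 in those nuclei, and the log2 fold change of Pcdh10 was 1.01 ± 0.96.

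Outside DG, the levels of Pcdh8 in FOS+ nuclei at 1 h overlapped HC. In CA1 it was at 0.44, 1.89 and 2.00 in FOS+ nuclei, 0.00, 0.29 and 1.12 in FOS− nuclei and 1.15, 1.18 and 1.91 in HC. In VIP it was at 0.65 and 4.47 in FOS+, 1.00, 2.12 and 4.49 in FOS− and 1.93, 3.56 and 3.72 in HC, with the 2 FOS+ mice at the ends of the range. A fit of all 3 types gave a FOS+ minus FOS− difference in Pcdh8 that was larger in DG than in CA1 by 5.09 ± 3.62 (SE, log2, unadjusted p = 0.179) and than in VIP by 4.73 ± 3.67 (unadjusted p = 0.216), so the types were not shown to differ. Between DG and CA1 edgeR called 0 members (background 0.00458%, 0 at an unadjusted p under 0.05), DESeq2 0 (background 2.49%) and limma 0 (background 0%). Between DG and VIP edgeR called 0 (background 0.00458%, 0 at an unadjusted p under 0.05), DESeq2 1, Cdh12 (background 3.42%), and limma 0 (background 0%). Between CA1 and VIP edgeR called 0 (background 0%, 0 at an unadjusted p under 0.05), DESeq2 2, Cdh12 and Cdh9 (background 3.62%), and limma 0 (background 0%).

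**Figure D5:**
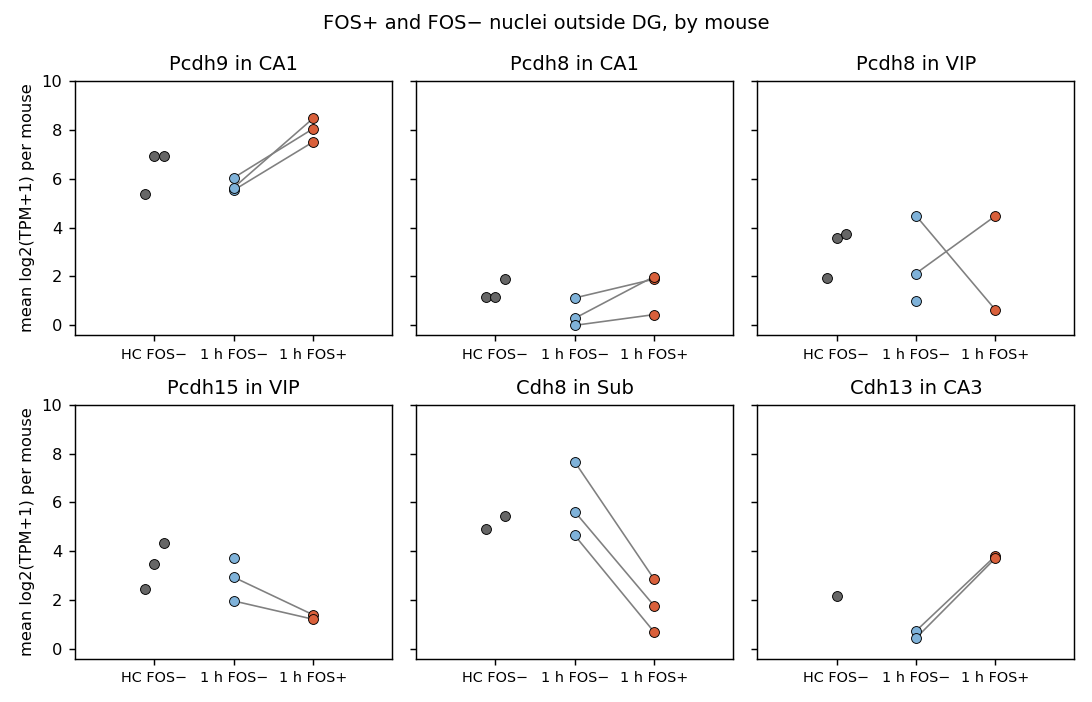
Mean log2(TPM+1) per mouse of 6 members and cell types outside DG in HC FOS−, 1 h FOS− and 1 h FOS+ nuclei, with lines joining the same mouse. Pcdh9 in CA1 and Cdh13 in CA3 are higher and Cdh8 in Sub lower in FOS+ nuclei of each joined mouse, while Pcdh8 in VIP has lines in both directions.

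In CA1, Pcdh9 was at 7.50, 8.05 and 8.47 in FOS+, 5.53, 5.64 and 6.04 in FOS− and 5.39, 6.93 and 6.94 in HC nuclei, with all FOS+ mice above the rest. The 3 mice gave both FOS+ and FOS− nuclei, and ranges apart in this way were not counted over all genes. Markers of CA1 and CA3 moved too: the summed level of 5 CA1 markers was 1.60, 5.36 and 14.4 in FOS+ nuclei, 9.16 to 14.4 in FOS− and 9.61 to 22.5 in HC. In the FOS+ mouse at 1.60, of 4 nuclei, 4 CA3 markers summed to 22.5, within the 21.3 to 26.1 of nuclei labelled CA3, against 6.83 and 10.1 in the other FOS+ mice and 13.1 to 14.7 in FOS− nuclei. That mouse had the highest Pcdh9 of the 3, and Pcdh9 is high in CA3 as well, at 7.64. Without it the log2 fold change of Pcdh9 was 1.60 (adjusted p = 1.0). The part of these markers in the result was not tested. The log2 fold change was 1.10 ± 0.45 (SE, adjusted p = 1.0) against FOS− and 0.65 ± 0.44 against HC. edgeR called 0 of 22 members for FOS+ against FOS− (background 0%), with 1 at an unadjusted p under 0.05, beside 4.34% of all genes. DESeq2 called 0 (background 1.79%) and limma 0 (background 0%). For FOS− against HC edgeR called 0 (background 0%, 0 at an unadjusted p under 0.05), DESeq2 0 (background 2.1%) and limma 0 (background 0%). For FOS+ against HC edgeR called 0 (background 0%, 0 at an unadjusted p under 0.05), DESeq2 0 (background 1.81%) and limma 0 (background 0%). Pcdh17 in FOS− nuclei was at -1.90 ± 0.89 against HC and Cdh10 in FOS+ nuclei at 2.00 ± 1.22 against FOS−, both without a call. Pcdh1 was at 2.44 ± 1.75 and Pcdh20 at 1.24 ± 0.80 in the latter comparison.

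In VIP interneurons Pcdh15 was at 1.22 and 1.40 in FOS+, 1.97, 2.94 and 3.74 in FOS− and 2.47, 3.47 and 4.34 in HC nuclei, so FOS+ mice lay below all others. Ranges apart in this way were not counted over all genes. DG markers summed to 8.68 to 9.89 in FOS+, 4.39 to 7.97 in FOS− and 4.63 to 10.9 in HC nuclei. Of these markers C1ql2 and Dsp were at 0 in all 3 groups, so the sums came from Prox1, Dock10 and Calb1. PROX1 protein is also a stain of the VIP gate. The part of these markers in the result was not tested. The log2 fold change of Pcdh15 was -3.22 ± 1.26 (SE, adjusted p = 0.971) against FOS− and -3.45 ± 1.27 against HC. DESeq2 called it in both (1 member each, backgrounds 1.56% and 1.1%), while edgeR called 0 members in either (background 0%) and limma 0 (background 0%). In each, 3 members were at an unadjusted p under 0.05 in edgeR, beside 4.84% and 3.33% of all genes. Pcdh7 was at 2.52, 3.98 and 6.81 in FOS− and 0.12, 1.73 and 1.88 in HC nuclei, a log2 fold change of 4.00 ± 1.47 (adjusted p = 0.753). For FOS− against HC edgeR called 0 (background 0%), with 3 at an unadjusted p under 0.05, beside 6.06% of all genes. DESeq2 called 0 (background 2.9%) and limma 0 (background 0%). Cdh6 was at 0.46 and 0.59 and Pcdh11x at 0.48 and 0.68 in VIP FOS+ mice, and both were at 0 in all 6 others.

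In nuclei labelled Sub, Cdh8 was at 0.70, 1.77 and 2.86 in FOS+, 4.65, 5.62 and 7.66 in FOS− and 4.90 and 5.44 in HC nuclei. Cdh20 was at 0.00, 0.27 and 0.27 in FOS+ and at 1.26, 1.44 and 2.07 in FOS− nuclei, and Pcdh10 was at 1.79, 2.71 and 3.65 against 4.04, 4.39 and 6.50. For these 3 genes no FOS+ mouse reached a FOS− or HC mouse, but how many of all genes had such ranges was not counted. edgeR called 0 of 21 members (background 0%), with 2 at an unadjusted p under 0.05, beside 6.71% of all genes. DESeq2 called 2, Cdh20 and Cdh8 (background 4.03%), and limma 0 (background 0%). CA3 markers summed to 3.52 to 8.82 in FOS+ and 8.78 to 15.3 in FOS− nuclei and oligodendrocyte markers to 8.58 to 12.5 and 6.92 to 10.6, and their part in the result was not tested. Cdh8 had a log2 fold change of -3.99 ± 1.18 (SE, adjusted p = 0.695) and Pcdh10 of -1.80 ± 0.93. In CA3, Cdh13 was at 3.71 and 3.80 in FOS+, 0.44 and 0.74 in FOS− and 2.16 in HC nuclei, and Pcdh17 at 2.68 and 3.47, 0.77 and 1.80, and 2.04. Pcdh7 was lower in FOS+ nuclei, at 1.80 and 2.08 against 4.88 and 5.58. edgeR called 0 of 22 members (background 0%), with 3 at an unadjusted p under 0.05, beside 4% of all genes. DESeq2 called 2, Cdh13 and Pcdh17 (background 3.54%), and limma 0 (background 0%). Pcdh17 had a log2 fold change of 3.34 ± 0.83 (SE, adjusted p = 0.798) and Pcdh7 of -2.06 ± 0.87. The summed CA1 markers were 1.48 and 2.12 in CA3 FOS+ and 4.02 and 6.13 in FOS− nuclei, and 4 oligodendrocyte markers summed to 8.95 to 10.5 and 4.99 to 5.92, with Mog at 0 in both. Their part in the result was not tested. The FOS+ and FOS− groups held 3 mice in Sub and 2 in CA3, and HC held 2 and 1.

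Partners of the family were counted in the same 24 comparisons. Over these comparisons edgeR called 0% to 0.191% of all genes. The 10 catenins and cytoplasmic partners, such as Ctnnb1 and Ctnnd2 that bind classical tails, had 7 to 10 genes tested and 0 called by edgeR. At most 2 were at an unadjusted p under 0.05, in 5 h against HC (background 8.58%). The 19 other genes of the cadherin superfamily, such as the Celsr, Fat and calsyntenin genes, had 9 to 18 tested and 0 called. At most 4 of them were at that level, in DG against VIP gates (background 11.1%). Of 11 proteases and actin partners, which include Adam10, the enzyme that cleaves N-cadherin, and the actin regulators that Pcdh10 recruits, all 11 were tested and 1 was called once. This was Wasf1, higher in the DG than in the VIP gate by 4.09 ± 0.52 (SE, adjusted p in edgeR 0.044, background 0.191%). Gate and date cannot be told apart there, and 34 of 49 nuclei in the VIP gate were labelled VIP. Median log2 fold changes of these lists over the comparisons ran from -0.95 to 1.43, -1.45 to 0.93 and -0.93 to 1.13.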

How the data were processed

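The authors trimmed reads with Solexa-QA++, aligned them to mm10 (GRCm38) with RSEM and Bowtie (versions not given in the sources used here), and deposited estimated counts, which are whole numbers in the files, and log2(TPM+1) values per nucleus, in 1 pair of tables for HC and 1 h nuclei and 1 for ARC+ nuclei. Neither table was normalized across nuclei. Rows without a value (30 in the count and 23 in the log2 tables) were left out. Nuclei with at least 100000 aligned reads and 4000 genes above 1 were kept (818), and 35 FOS− HC and 1 h nuclei with Arc above 2.5 were removed, as in the study.

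Counts were summed over at least 2 nuclei per mouse and group and tested with edgeR 4.0.16 (TMM, filterByExpr, quasi-likelihood F test; R 4.3.3), Benjamini-Hochberg adjusted over all genes tested, threshold 0.05. DESeq2 1.42.0 on the same sums and limma 3.58.1 on mean log2(TPM+1) (genes with a mean of at least 0.5) were alternatives. limma thus tested 17 members in DG, 18 in CA1, 19 for the gates and the FOS effect, 20 in VIP and Sub and 21 in CA3. The edgeR steps were tested on simulated data with known changes in genes above the median level. Of 8-fold changes, 5% were recovered for DG against VIP gates, 1% for CA1 FOS+ against FOS−, 3% for 4 h against HC and 30% for A > A. Of 64-fold changes, 35%, 23%, 20% and 65% were recovered in the same order. A comparison without a call thus does not show that levels were equal. The DG groups shared 1 fit, with the 1 h mouse assumed to vary like the others, and sort gates were fitted with exposure as a term. P-values rest on the spread between sums of one mouse and group, such as 28 sums from 23 mice in the DG fit. The main fits held no term for mouse, so FOS+ and FOS− sums of the same mouse were taken as independent. For the 1 h DG groups that spread came from the other groups. The common dispersion was 1.49 to 2.20, so the sums were noisy. Members and gene lists were chosen with earlier results of these data known. Named members were those past the threshold or, up to 5 per comparison, with the smallest p, the 3 highest per cell type, and Pcdh8, Pcdh20, Cdh2, Cdh13, Pcdh17 and Pcdh9. A fold was printed only where the highest mouse of each group was at 1 or more.

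FOS+ and FOS− nuclei of the same mouse number and date were checked for pairing: their deviations correlated at 0.14 to 0.302 in A > A (4 mice), 0.076 to 0.122 in CA1, 0.038 to 0.067 in VIP, 0.05 to 0.086 in Sub and 0.086 in CA3. A > C had no mouse with both. Intervals and shares cover counting error only. Python 3.11.15 with pandas 2.3.3 was used for levels and figures.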

Additional observations from a re-analysis of the deposited data

Results flagged for a closer look

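In groups of 4 to 10 mice, 44 sets of levels were checked for a mouse far from the rest, and 4 held one. Chance alone gives about 1 in 20 such sets. Pcdh8 in DG nuclei at 5 h was at 3.56 in 1 mouse with 6 nuclei, against 6.56 to 6.74 in the other 3. Pcdh10 in A > A FOS− nuclei was at 0.62 in 1 mouse with 6 nuclei, with the next of the 8 at 1.14. In the VIP gate, 1 of the 4 mice, a 1 h mouse with 9 nuclei, was at 0.00 for Pcdh20, where the next was at 2.52, and at 2.92 for Pcdh8, where the next was at 1.96.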

How the results depend on the processing

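With settings other than leaving out a mouse, 163 of 188 counts of called members stayed within 1.5 times the edgeR count, and 436 of 460 fold changes of the 59 printed kept their direction and side of the threshold, with 19 more past it and 5 reversed. DESeq2 called more members and more of all genes, whose share follows each count in brackets. Between gates it called 7 (6.71%) for DG against CA1, 6 (11.1%) for DG against VIP and 1 (6.53%) for VIP against CA1. Against HC in DG it called 2 (8.42%) at 1 h FOS+, 3 (4.54%) at 4 h and 3 (9.17%) at 5 h. For FOS+ against FOS− it called 1 in DG at 1 h (4.77%), VIP (1.56%), A > A (4.68%) and A > C (5.13%). The same contrast gave 2 in Sub (4.03%) and CA3 (3.54%). It called 1 for VIP FOS+ against HC (1.1%) and 1 for 5 h against 1 h FOS+ (7.16%). For the differences in the FOS effect it called 1 for DG and VIP (3.42%) and 2 for CA1 and VIP (3.62%). limma called 2 (1.08%) for DG against CA1 and 3 (4.55%) for DG against VIP. It called 1 (0.405%) for DG FOS+ against FOS− at 1 h and 2 (3.71%) in A > A. Against HC it called 4 (2.71%) at 4 h and 5 (8.42%) at 5 h, and it called 1 (1.02%) for 5 h against 1 h FOS+. In edgeR, leaving out the exposure term gave 1 for DG against VIP (Pcdh10), and no thresholds for nuclei gave 2 at 5 h against HC (Cdh9, adjusted p = 0.0364, beside Pcdh8). The causes were not tested.

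Leaving out each mouse in turn gave 0 to 2 called members against HC at each time (1 h FOS+, 4 h, 5 h), the extremes from the 2 HC mice, and did not move the other counts. Of 811 printed fold changes refitted this way, 804 kept direction and side of the threshold, 3 lost it, 3 gained it and 1 reversed, Cdh9 in A > C, whose range was -1.04 to 0.06. Reversed values were -0.17 for Cdh13 (VIP against CA1, cell type labels), -0.14 for Pcdh10 (CA1 FOS+ against FOS−, limma), 0.36 for Pcdh9 (CA1 FOS− against HC, at least 5 nuclei), -0.24 for Cdh2 (DG 1 h FOS+ against HC, limma), -0.57 for Cdh8 (FOS effect, CA1 against VIP, at least 5 nuclei) and 0.06 for Cdh9 (A > C, without 1 FOS− mouse). With mouse as a replicate block, 0 members were called in all 6 comparisons that allow it, the same count as without the block. A fit with at least 5 nuclei per sum could not be made for Sub. Depth limits low members most: median counts per nucleus were 426841 at 5 h and 2469299 at 4 h.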
